A study of Mus musculus with 2 samples.

Results

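Molecular chaperones of the Hsp70, Hsp90, J protein and chaperonin families were examined in cerebellar RNA of mice at postnatal day 7. The set holds every gene whose symbol in the array annotation begins with Hspa, Hsp90, Dnaja, Dnajb, Dnajc or Cct and a number, together with Hspd1, Hspe1, Hsph1 and Tcp1, read from probe sets that name 1 gene. This gave 72 genes of the 19503 on the array, measured by 94 of its 22097 probe sets. Hsp90ab1, Hspa1b and other family members without such a probe set were not analysed here. The mice, Tg(Pcp2-L10a-Egfp), carry the ribosomal protein L10a fused to a green fluorescent protein under the promoter of Pcp2, a gene of Purkinje cells. The TRAP sample is RNA eluted from beads that had captured the tagged ribosomes (translating ribosome affinity purification) out of pooled, cycloheximide-treated cerebellar homogenate. The unbound sample is the RNA those beads left in solution, so that it still holds Purkinje cell RNA that was not captured. Both come from transgenic animals of the same age, and each was hybridised to 1 Affymetrix array. How many animals were pooled, their sex and whether both samples share a pool are unstated in the labels.

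Chaperones bind proteins that are not yet folded and release them for folding, assembly or transport across membranes. Hsp70 proteins grip short hydrophobic stretches in a cycle driven by ATP: J proteins, named Dnaja, Dnajb and Dnajc after bacterial DnaJ, deliver the client and trigger ATP hydrolysis, and nucleotide exchange factors reopen the grip. Hsp90 acts later, on nearly folded kinases and receptors. Chaperonins enclose a client in a barrel, Hsp60 (Hspd1) with its lid Hsp10 (Hspe1) in mitochondria and TRiC, built of the Cct subunits and Tcp1, in the cytosol, where it folds actin and tubulin. The mitochondrion, the endoplasmic reticulum and the cytosol each keep their own Hsp70 and J proteins. Purkinje cells make very large dendritic trees in the weeks after birth, and several J proteins are known from neuronal disease or from synapses.

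All values are log2 expression values of 1 array, and a difference is the TRAP value minus the unbound value. Each fraction has 1 array, so there is no error for a gene and no test; a gene is called by size alone, when its values lie 2-fold or more apart (1 on the log2 scale). A gene counted as above the floor if it exceeded 7.08 on at least 1 array, the median of all probe set values. Levels of different genes are not compared, because probe sets differ in brightness. In bulk RNA of this kind, fewer cells of a type and less RNA per cell cannot be told apart.

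Markers showed how far the fractions differed. Pcp2 read 12.98 in TRAP and 11.65 in unbound, and each of the 7 Purkinje cell markers measured was higher in TRAP, with a median difference of 1.34. Of 34 measured markers of granule cells, dividing cells, interneurons, glia, choroid plexus, microglia and endothelium, 29 were above the floor, and all 29 were lower in TRAP (26 at least 2-fold), the median being -2.21. Of these 29, 12 passed the floor through the unbound array alone and so had to be lower in TRAP; all 17 above it on both arrays were lower, 15 at least 2-fold, and without the floor 32 of 34 were lower, Foxj1 and Pecam1 being the exceptions. The TRAP array kept values for them: the granule cell markers ran from 7.11 to 11.84 there, against 9.30 to 12.91 in unbound, and the astrocyte and Bergmann glia markers from 6.78 to 12.27, against 8.78 to 13.25. The summed log2 values of these lists were 53.7 in TRAP against 66.0 in unbound for the 6 granule cell markers, 49.95 against 64.65 for the 6 astrocyte and Bergmann glia markers, and 85.8 against 74.2 for the Purkinje cell markers. A sum of log2 values is not an amount of RNA, and it compares the arrays within a list only, not one list with another. The median difference was -2.25 for the granule cell markers and -2.30 for the astrocyte and Bergmann glia markers. The part of the other cell types in the differences of single chaperone genes was not tested.

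Of the 72 chaperone genes, 58 were above the floor, 54 of them on both arrays and 4 (Dnajb9, Dnajb11, Hspa2 and Hspa13) through the unbound array alone. Over these 58 the differences ran from -2.51 to 1.59, with a median of 0.03, beside a median of -0.13 over the 10524 genes above the floor. A total of 4 chaperone genes (6.90%) were at least 2-fold higher in TRAP, beside 8.11% of all genes above the floor. These were Hspa12a, Hspe1, Dnaja3 and Dnajc15. A further 5 (8.62%), Dnajb9, Hspa2, Hspa13, Dnajc18 and Hsp90b1, were at least 2-fold lower in TRAP, beside 18.6% of all genes. Without the floor, 4 of 72 were at least 2-fold higher in TRAP, where the share of all genes was 4.58%, and 6 of 72 at least 2-fold lower, where it was 11.0%. As deposited, the shares of chaperone genes past 2-fold thus lay near or below those of the whole array. These counts depended on the scaling of the arrays. With each array's median subtracted, 12 of 58 chaperone genes passed 2-fold in favour of TRAP, beside 16.4% of all genes above the floor. Against TRAP there were 2 of 58, beside 11.55%. The share higher in TRAP among those that differed was then 85.7%, against 44.4% as deposited. Quantile normalization gave 7 and 3 genes (70.0%), beside 12.0% and 13.68% of all genes. Removing the trend of differences along mean levels gave 5 and 3 (62.5%), beside 9.35% and 16.52%. Over all genes, the share higher in TRAP among those that differed moved likewise. It was 58.6% after subtraction of the array medians, 46.7% after quantile normalization and 36.1% after trend removal, against 30.4% as deposited. Over all genes, the median difference moved by 0.37 (to 0.25) with array medians subtracted, and by 0.21 with quantile normalization.

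**Figure D1:**
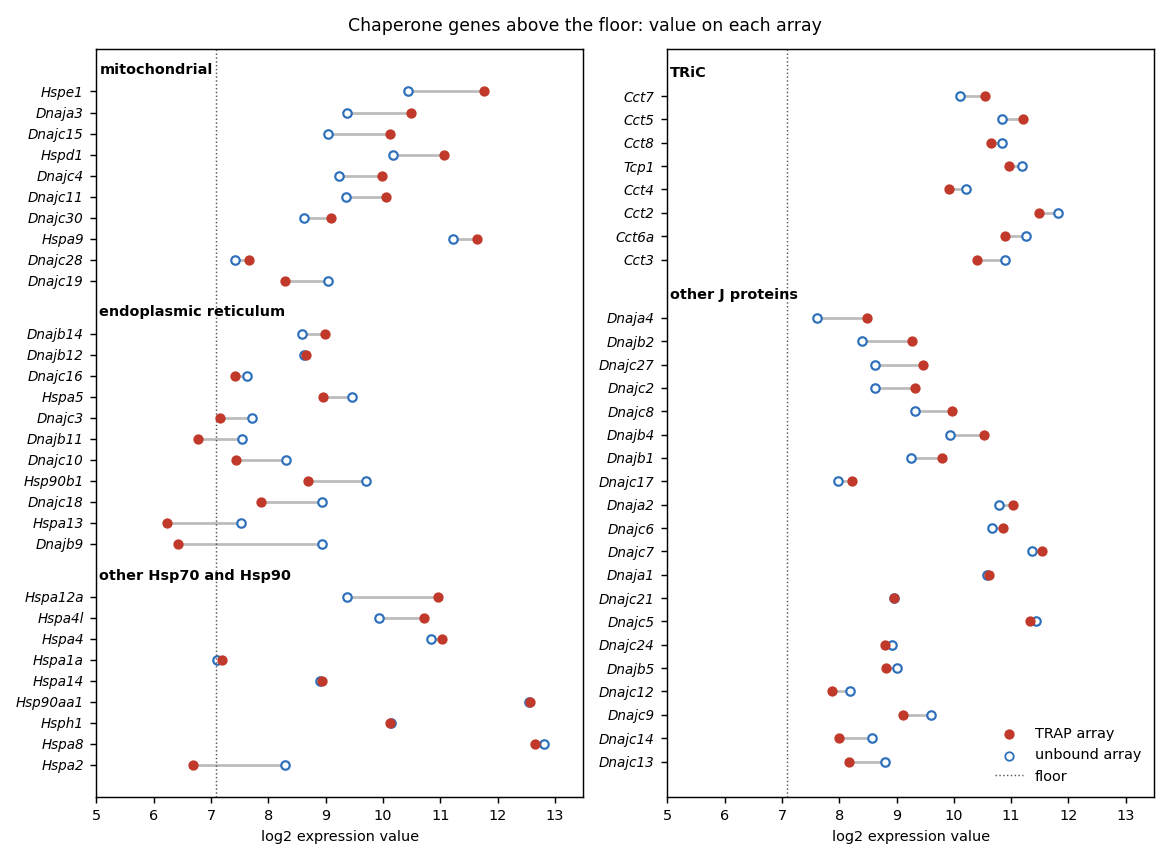
Log2 expression value (x axis) of each of the 58 chaperone genes above the floor, with filled points for the TRAP array and open points for the unbound array; the dotted line is the floor at 7.08. Genes are grouped by compartment or family and ordered by difference, and 9 of 10 mitochondrial genes have the TRAP point on the right, against 2 of 11 genes of the endoplasmic reticulum. Of these 11, Dnajb9, Dnajb11 and Hspa13 passed the floor through the unbound array alone and so had to be lower in TRAP.

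Sorted by compartment, mitochondrial and endoplasmic reticulum genes had medians on opposite sides of 0, with ranges that overlap. Of the 10 assigned to mitochondria, all above the floor on both arrays, 9 were higher in TRAP, with a median of 0.72. Of the 10, 3 were at least 2-fold higher as deposited, after quantile normalization and after trend removal, where the share over all genes above the floor was 8.11%, 12.0% and 9.35%, and 6 with array medians subtracted, where it was 16.4%. A difference above 0 was found for 44.1% of all genes above the floor. The count of 9 of 10 was the same as deposited, with array medians subtracted, after quantile normalization and after trend removal, and the same 9 genes lay above the median of all genes under each.

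The mitochondrial chaperonin genes were both higher in TRAP. Hspe1, the Hsp10 lid, read 11.76 in TRAP and 10.44 in unbound, 2.51-fold higher, and its 2 probe sets gave 1.31 and 1.34. Hspd1, the Hsp60 barrel, read 11.07 in TRAP and 10.18 in unbound, a difference of 0.89. Its 2 probe sets disagreed in size, with 11.48 against 10.86 for the first (0.62) and 10.67 against 9.51 for the second (1.16), and both were higher in TRAP. Both genes have near-identical copies elsewhere in the genome, from which an array cannot separate them with certainty.

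In the RefSeq promoter table of build GRCm38.p6, which gives 250 bases before and 50 after a gene's start and had an entry for 59 of the 72 genes, Hspe1 and Hspd1 lie head to head. Their windows share 285 bases, read on opposite strands. The shared stretch is shown because it holds a heat shock element, the binding motif of heat shock factors, searched on both strands as the letters GAANNTTC followed directly by NNGAA (TTCNNGAA followed by NNTTC on the other strand). Capitals mark 2 matches that overlap each other, in the Hspe1 window at chr1:55087898-55088197, plus strand.
Hspe1 promoter: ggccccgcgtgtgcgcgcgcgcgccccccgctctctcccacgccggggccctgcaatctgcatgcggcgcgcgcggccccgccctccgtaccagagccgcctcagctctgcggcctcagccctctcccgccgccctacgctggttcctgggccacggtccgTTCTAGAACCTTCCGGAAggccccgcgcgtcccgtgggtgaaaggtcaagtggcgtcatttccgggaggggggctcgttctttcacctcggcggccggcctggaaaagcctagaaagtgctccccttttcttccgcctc
The motif was found in 6 of 77 promoter windows of the chaperone genes, belonging to Hspe1, Hspd1, Hsph1 and Dnajb6, and in 0.603% of the 32851 windows in the table. Windows overlap, so that Hspe1 and Hspd1 share 1 element and both windows of Hsph1, like both of Dnajb6, hold the same bases. The 4 genes did not share a direction: Hsph1, an exchange factor of Hsp70, had a difference of -0.01, and Dnajb6, a J protein that keeps polyglutamine proteins from aggregating, read 5.27 in TRAP and 5.36 in unbound, both below the floor. The Hsph1 match, on the minus strand, is shown with its flanks at chr5:149636268-149636320 for comparison.
Hsph1 window: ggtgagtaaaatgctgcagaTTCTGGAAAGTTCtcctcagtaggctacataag
A match is a string of letters in this window and was not measured as binding.

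The mitochondrial Hsp70 and its J proteins differed in size and, for Dnajc19, in direction. Hspa9, the mitochondrial Hsp70 that pulls imported proteins into the matrix and folds them there, read 11.64 in TRAP and 11.23 in unbound, 1.34-fold higher. Dnaja3, its folding partner in the matrix, read 10.49 in TRAP and 9.38 in unbound, 2.16-fold higher. Dnajc15, an inner membrane J protein known to restrain complex I of the respiratory chain, read 10.13 in TRAP and 9.04 in unbound, 2.13-fold higher. Its close relative Dnajc19, a J protein of the import motor, was the exception of the group with 8.29 in TRAP and 9.04 in unbound, 1.69-fold lower. The 2 related genes thus differed in sign, 1.09 and -0.75, and Dnajc19 kept its sign under each scaling.

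Among the remaining mitochondrial J protein genes, Dnajc11, which takes part in the organisation of cristae, read 10.05 in TRAP and 9.36 in unbound. Dnajc4 read 9.98 in TRAP and 9.23 in unbound. For Dnajc30, linked to the upkeep of complex I, the values were 9.10 in TRAP and 8.63 in unbound, and for Dnajc28 7.66 in TRAP and 7.41 in unbound. These 4 differences, 0.69, 0.75, 0.47 and 0.25, all stayed short of 2-fold as deposited.

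Helpers of the mitochondrial chaperones showed the same direction. On a list of 12 mitochondrial proteases, chaperones and scaffolds, 10 of 11 measured genes were higher in TRAP under each scaling, with a median of 0.74 as deposited. As deposited, 44.1% of all genes above the floor were higher in TRAP. None of the 11 was at least 2-fold higher as deposited, beside 8.11% of all genes. With array medians subtracted 6 were, beside 16.4%, after quantile normalization 2, beside 12.0%, and after trend removal 1, beside 9.35%. Spg7 passed the floor through the TRAP array alone. Trap1, the mitochondrial Hsp90, whose symbol keeps it out of the set, read 10.26 in TRAP and 9.43 in unbound. Htra2, a protease of the intermembrane space, and Spg7, a subunit of an inner membrane protease, had the largest differences with 0.90 and 0.87, and Clpx and Yme1l1, a chaperone subunit and a protease, the smallest with 0.25 and -0.63. Grpel1, the nucleotide exchange factor of Hspa9, read 10.08 in TRAP and 8.96 in unbound, 2.18-fold higher, whereas its paralogue Grpel2 read 9.62 and 9.65.

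**Figure D2:**
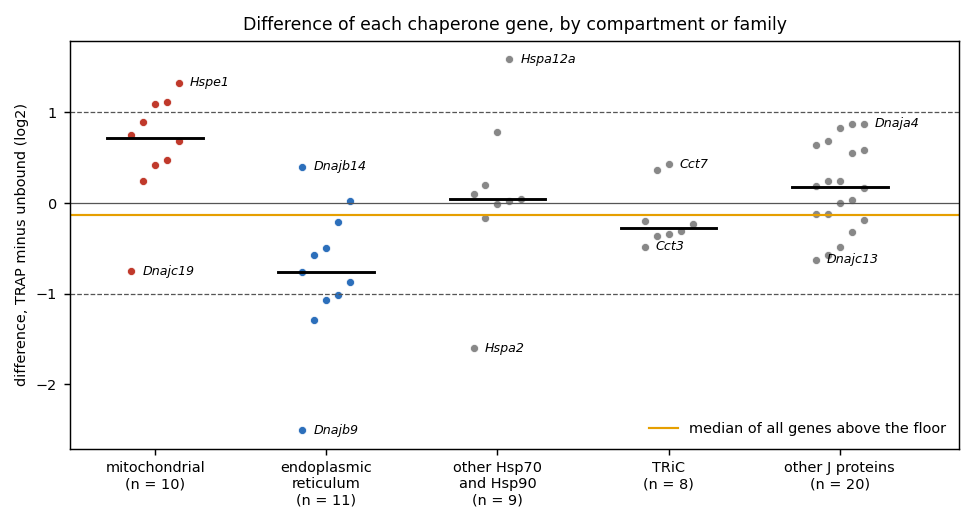
Difference between the TRAP and unbound arrays (y axis, log2) of each chaperone gene above the floor, by compartment or family, with black bars for the median of a group and dashed lines at 2-fold. The mitochondrial group has a median of 0.72 and the endoplasmic reticulum group one of -0.77, on either side of the median of all genes above the floor (-0.13, orange line). In the endoplasmic reticulum group, Dnajb9, Dnajb11 and Hspa13 passed the floor through the unbound array alone and so had to be lower in TRAP.

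Chaperone genes of the endoplasmic reticulum lay on the other side. Of 13 genes assigned to this compartment, 11 were above the floor, 9 of the 11 were lower in TRAP and 4 at least 2-fold, with a median of -0.77. Over all genes above the floor 55.8% were lower in TRAP and 18.6% at least 2-fold. With array medians subtracted 8 of 11 were lower and 1 at least 2-fold, beside 11.55% of all genes at least 2-fold lower. After quantile normalization 8 were lower and 2 at least 2-fold, beside 13.68%. After trend removal 9 were lower and 2 at least 2-fold, beside 16.52%. Of the 11, Dnajb9, Dnajb11 and Hspa13 passed the floor through the unbound array alone, where a gene had to be lower in TRAP. Dnajb9 and Hspa13 were among the 4 at least 2-fold lower as deposited. Without the floor 10 of 13 were lower in TRAP and the median was again -0.77. At least 2-fold lower were 5 of the 13, beside 11.0% of all genes without the floor.

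Dnajb9, a J protein of the lumen that hands misfolded proteins to degradation and holds back the stress sensor Ire1, had the lowest difference of the 72 chaperone genes. It read 6.43 in TRAP, below the floor, and 8.93 in unbound, and was thus 5.68-fold lower, a fold whose size is uncertain because no detection call exists. It was the single chaperone gene past 4-fold. Hspa5, the Hsp70 of the lumen known as BiP, read 8.96 in TRAP and 9.45 in unbound, 1.41-fold lower. Hsp90b1, the Hsp90 of the lumen known as Grp94, read 8.68 in TRAP and 9.70 in unbound, 2.02-fold lower. Its difference fell short of 2-fold with array medians subtracted (-0.68), after quantile normalization (-0.86) and after trend removal (-0.95). Hspa13, a small Hsp70 of microsomes, read 6.23 in TRAP and 7.52 in unbound, and the TRAP value lay below the floor.

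The other lumenal J proteins above the floor were lower in TRAP by less than 2-fold. Dnajb11, a BiP partner for unfolded clients, read 6.78 in TRAP and 7.54 in unbound. Dnajc10, which also reduces disulfide bonds, read 7.43 in TRAP and 8.30 in unbound. Dnajc3, an inhibitor of the kinase Perk in its cytosolic form and a BiP partner in the lumen, read 7.15 in TRAP and 7.72 in unbound on both of its probe sets, whose listed values are identical and so count once. Dnajc1, with its J domain in the lumen and a cytosolic part that touches ribosomes, read 5.44 in TRAP and 6.85 in unbound. Its values were 2.66-fold apart but below the floor on both arrays.

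The membrane J proteins that face the cytosol were mixed. Dnajc18 read 7.87 in TRAP and 8.94 in unbound, 2.10-fold lower. Its difference fell short of 2-fold with array medians subtracted (-0.74), after quantile normalization (-0.79) and after trend removal (-0.92). Its relatives Dnajb12 and Dnajb14, which recruit cytosolic Hsc70 to membrane proteins due for degradation, were the 2 genes of the group higher in TRAP, with 8.65 against 8.63 and 8.98 against 8.58. Dnajc16 differed by -0.21 and turned positive with array medians subtracted or after quantile normalization. Dnajc25 read 6.86 in TRAP and 6.73 in unbound, below the floor on both.

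Of the promoters in the RefSeq table, 3 of these genes, Hspa5, Hsp90b1 and Dnajc3, hold the endoplasmic reticulum stress element, searched on both strands as CCAAT and CCACG with any 9 bases between them. This motif was picked after the values had been seen. It occurs in 39 of the 32851 windows (0.119%) and in 3 of the 77 windows of chaperone genes. All 3 genes had lower values in TRAP (-0.49, -1.02 and -0.57), and their matches are shown in capitals with flanking bases, because they mark the genes that the unfolded protein response is known to induce. The windows lie at chr2:34772005-34772063 on the plus strand, chr10:86705513-86705676 on the minus strand and chr14:118937807-118937865 on the plus strand.
Hspa5 window: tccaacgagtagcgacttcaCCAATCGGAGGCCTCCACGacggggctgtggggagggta
Hsp90b1 window: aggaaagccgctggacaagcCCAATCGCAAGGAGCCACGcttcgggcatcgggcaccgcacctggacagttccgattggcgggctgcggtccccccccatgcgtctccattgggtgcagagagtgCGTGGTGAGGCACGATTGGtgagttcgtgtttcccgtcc
Dnajc3 window: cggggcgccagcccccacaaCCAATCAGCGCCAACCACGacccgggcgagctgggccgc
Hsp90b1 holds 2 matches, the second in the reverse orientation. Dnajb9, with the lowest difference, holds no match to these letters in its window.

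The folding partners of the endoplasmic reticulum held genes on both sides. Of 15 listed genes above the floor, 10 were lower in TRAP and 5 at least 2-fold, with a median of -0.74, beside 18.6% of all genes at least 2-fold lower. With array medians subtracted or after quantile normalization 9 of 15 were lower. The count at least 2-fold lower was 1 of 15 with array medians subtracted, beside 11.55% of all genes. It was 2 after quantile normalization, beside 13.68%, and 3 after trend removal, beside 16.52%. Of the 15, 3 (Sec63, Atf6 and Uggt1) passed the floor through the unbound array alone and so had to be lower in TRAP. Among the 12 above the floor on both arrays, 7 were lower and 3 at least 2-fold. Sec63, the J protein of the translocation pore, read 6.48 in TRAP and 7.95 in unbound, the TRAP value below the floor. Canx, the membrane lectin calnexin, read 8.99 in TRAP and 10.27 in unbound, 2.43-fold lower. At the other end stood Sec61b, a subunit of the pore itself, with 9.30 in TRAP and 8.53 in unbound, and Atf4, a transcription factor gene of the stress response, with 9.84 and 9.44. Hyou1, an exchange factor for BiP, differed by -0.54, and Sil1, another one and a gene of ataxia, by 0.03.

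**Figure D3:**
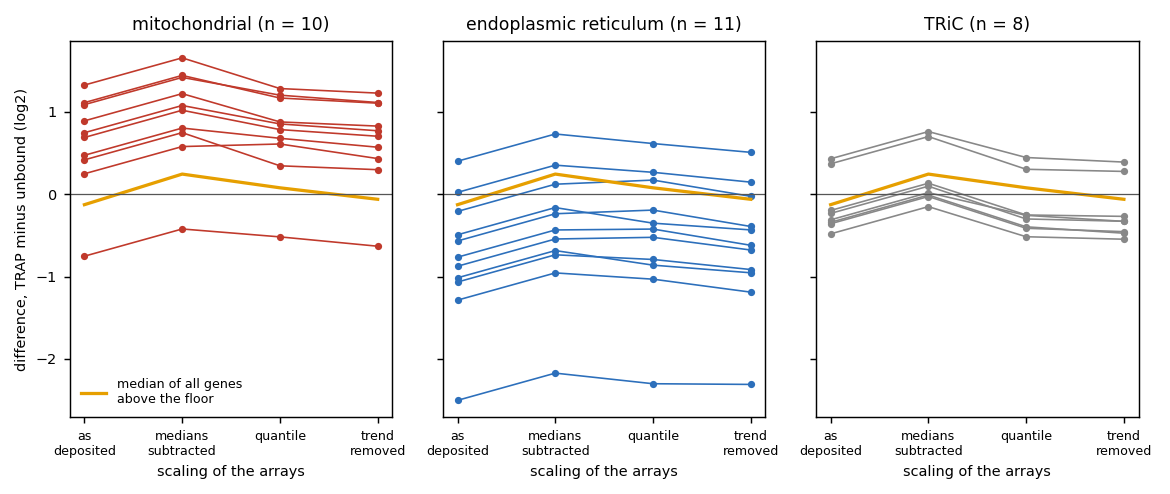
Difference between TRAP and unbound (y axis, log2) of each mitochondrial, endoplasmic reticulum and TRiC gene above the floor under 4 scalings of the arrays (x axis), joined by a line per gene; the orange line is the median of all genes above the floor. The mitochondrial genes except Dnajc19 lie above the orange line under every scaling shown, and of the 8 TRiC genes, 2 are above 0 as deposited and 5 with array medians subtracted, with 2 of 8 above the orange line throughout.

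The cytosolic Hsp70 and Hsp90 genes differed little, with Hspa2 and Hspa12a as the exceptions. Hspa8, the constitutive Hsc70, read 12.65 in TRAP and 12.82 in unbound, and its 3 probe sets gave differences from -0.17 to -0.14. Hsp90aa1, the inducible cytosolic Hsp90, read 12.57 and 12.55, and its 3 probe sets ran from 0.00 to 0.06. Near-identical copies of Hspa8 and Hsp90aa1 could share probes, so the probe sets of each gene may not be independent readings. Hspa8 turned positive with array medians subtracted, and Hsp90aa1 turned negative after quantile normalization and trend removal, so neither has a settled direction. Hspa1a, the heat-inducible Hsp70 whose near-identical copy Hspa1b could share its probes, read 7.20 in TRAP and 7.10 in unbound, just above the floor on both arrays.

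Hspa2, an Hsp70 best known for its need in spermatogenesis, read 6.69 in TRAP, below the floor, and 8.29 in unbound, 3.04-fold lower. Hspa12a, a distant relative of Hsp70 without a settled client, read 10.97 in TRAP and 9.38 in unbound, 3.004-fold higher, the largest difference in that direction among the 72 genes. The listed values of both stayed past 2-fold under each scaling, but the size for Hspa2 is uncertain, since it passed the floor through the unbound array alone. Hspa12b, the paralogue of Hspa12a known from endothelium, read 6.31 in TRAP and 6.24 in unbound, below the floor on both.

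The Hsp110 proteins, large relatives of Hsp70 that serve it as exchange factors, were split. Hspa4l read 10.71 in TRAP and 9.92 in unbound, 1.72-fold higher. Hspa4 read 11.03 in TRAP and 10.83 in unbound. Hsph1 was level on both arrays, with 10.13 and 10.13.

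Hspa14 and Dnajc2 form a complex that sits on the ribosome at the exit of the nascent chain. Dnajc2 read 9.32 in TRAP and 8.63 in unbound, 1.61-fold higher, whereas Hspa14 read 8.94 and 8.90, a difference of 0.04. The pair therefore did not share one size of difference.

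Subunits of TRiC were close to each other. All 8 subunit genes above the floor (Tcp1, Cct2, Cct3, Cct4, Cct5, Cct6a, Cct7 and Cct8) differed by less than 1.4-fold. Of the 8, 6 were lower in TRAP as deposited, where 55.8% of all genes above the floor were lower. The count was also 6 after quantile normalization and after trend removal, but 3 of 8 with array medians subtracted. The median of the 8 was -0.27, or 0.06 with array medians subtracted. Cct5, with 11.21 in TRAP and 10.84 in unbound, and Cct7, with 10.54 and 10.10, were higher in TRAP under every scaling tried. Cct3 had the lowest difference, with 10.41 in TRAP and 10.89 in unbound, followed by Cct6a with 10.90 and 11.26 and Cct2 with 11.48 and 11.82. The remaining subunits differed by -0.31 (Cct4), -0.23 (Tcp1) and -0.20 (Cct8). The testis isoform Cct6b and the related Cct8l1 read below 5 on both arrays.

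Prefoldin, which passes actin and tubulin chains to TRiC, was higher in TRAP in all its subunits measured. Of 9 listed prefoldin and TRiC partner genes above the floor, 7 were higher in TRAP under each of the 4 scalings, with a median of 0.36 as deposited. As deposited, 44.1% of all genes above the floor were higher in TRAP. Their median moved to 0.25 with array medians subtracted and to 0.08 after quantile normalization. The 6 prefoldin subunit genes were all among the 7, led by Pfdn1 with 10.27 in TRAP and 9.29 in unbound and Pfdn6 with 10.85 and 10.07. Pdcl3 and Txndc9, phosducin-like and thioredoxin-like cofactors of TRiC, were lower in TRAP, with differences of -1.17 and -0.57. Pdcl3 was thus 2.25-fold lower, the 1 gene of the 9 past 2-fold in that direction, beside 18.6% of all genes. It fell short of 2-fold with array medians subtracted and after quantile normalization.

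J proteins assigned to neither mitochondria nor endoplasmic reticulum numbered 20 above the floor. Dnajc14, known for receptor transport out of the endoplasmic reticulum, was counted among them. None of the 20 reached 2-fold as deposited, 12 were higher and 8 lower in TRAP, and the median was 0.18. Over all genes above the floor 44.1% were higher in TRAP as deposited. With array medians subtracted 17 were higher, and the 4 of 20 at least 2-fold higher lay near the 16.4% of all genes. Of these 20 genes, the 7 of the Dnaja and Dnajb classes act mainly as partners of cytosolic Hsp70. Dnaja4 and Dnajb2 were highest, with 8.49 in TRAP against 7.61 in unbound for Dnaja4 and 9.27 against 8.39 for Dnajb2, a neuronal J protein that binds ubiquitin chains and is mutated in hereditary motor neuropathy. Dnajb4 read 10.53 in TRAP and 9.94 in unbound, and Dnajb1, the main partner of Hsp70 in stressed cells, 9.80 and 9.24. The general partners Dnaja1 and Dnaja2 differed by 0.03 and 0.24, and the 2 probe sets of Dnaja1 had opposite signs (0.12 and -0.07). Dnajb5 differed by -0.18.

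The J proteins of vesicles, endosomes and synapses named here, Dnajc5, Dnajc6, Dnajc13 and Dnajc27, each differed by less than 2-fold. Dnajc5, the cysteine string protein that keeps SNARE proteins of synaptic vesicles folded, read 11.32 in TRAP and 11.44 in unbound. Dnajc6, the neuronal auxilin that strips clathrin from vesicles, read 10.86 in TRAP and 10.67 in unbound, and Gak, its ubiquitous relative with another symbol, 10.18 and 10.43. Dnajc13, which acts in sorting at endosomes, is read by 15 probe sets. As deposited, all 15 were lower in TRAP, with differences from -0.87 to -0.21 and a mean of -0.63, so the probe sets shared a direction while differing in size. They come from the same pair of arrays and are not replicates. The probe sets at -0.31 and -0.21 lay closer to 0 than the difference of the array medians (-0.33). With array medians subtracted the gene's difference was -0.30. Dnajc27, which joins a Rab-like GTPase to a J domain, read 9.46 in TRAP and 8.63 in unbound, 1.78-fold higher.

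**Figure D4:**
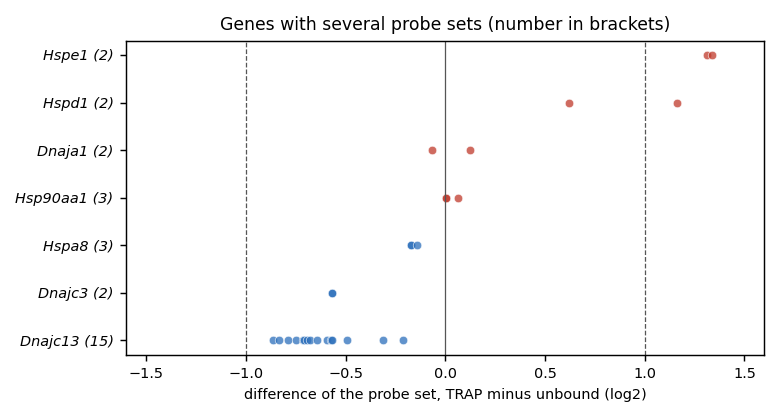
Difference between TRAP and unbound (x axis, log2) of each probe set of the 7 chaperone genes with several probe sets; dashed lines mark 2-fold. As deposited, the probe sets of Hspe1 lie close together at 1.31 and 1.34, those of Hspd1 apart at 0.62 and 1.16, and all 15 of Dnajc13 below 0.

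The J proteins of the nucleus and of RNA and ribosome metabolism went both ways. Dnajc8, a protein of splicing complexes, read 9.96 in TRAP and 9.33 in unbound, and Dnajc17, also tied to splicing, 8.22 and 7.98. Dnajc9, a histone chaperone, read 9.11 in TRAP and 9.59 in unbound. The 5 measured markers of dividing cells were at least 2-fold lower in TRAP beside it, with a median of -2.73 (3 of them below the floor in TRAP), and their part in the value of Dnajc9 was not tested. Dnajc21, which helps the large ribosomal subunit mature, was level with 8.95 in TRAP and 8.96 in unbound. Dnajc24, needed for the diphthamide modification of elongation factor, differed by -0.12.

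Of the others, Dnajc7, a J protein that hands clients between Hsp70 and Hsp90, read 11.53 in TRAP and 11.36 in unbound. Dnajc14, known for receptor transport out of the endoplasmic reticulum, read 8.001 in TRAP and 8.573 in unbound. Dnajc12, a partner of aromatic amino acid hydroxylases, read 7.87 in TRAP and 8.19 in unbound and turned positive with array medians subtracted or after quantile normalization.

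Co-chaperones of Hsp90 and Hsp70, the second list including partners in mitochondria and the endoplasmic reticulum, spread on either side of 0. Over all genes above the floor 44.1% were higher in TRAP as deposited. For Hsp90, 9 of 15 listed co-chaperone genes were higher in TRAP, with a median of 0.01. After trend removal 7 of 15 were higher, and 12 of 15 with array medians subtracted. Ahsa1, the activator of the Hsp90 ATPase, read 11.01 in TRAP and 10.03 in unbound, short of 2-fold, while its paralogue Ahsa2, singled out after its value was seen, read 8.99 and 9.43. Nudc, a second gene at the upper end, differed by 0.79, and Tsc1 and the immunophilin gene Fkbp5 were lowest with -0.94 and -0.53. For Hsp70, 12 of 17 were higher in TRAP and the median was 0.21. Grpel1, given above, and Bag1, an exchange factor with 10.89 in TRAP and 10.05 in unbound, stood at the upper end, and Bag3, an exchange factor of stress-induced autophagy, and Sgtb at the lower, with 7.20 against 8.10 and 9.10 against 9.94. The heat shock factor Hsf2 read 8.787 in TRAP and 8.995 in unbound and turned positive with array medians subtracted, and Hsf4 read 7.10 and 6.12, the unbound value below the floor. Hsf1, the main heat shock factor, was not analysed here.

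**Figure D5:**
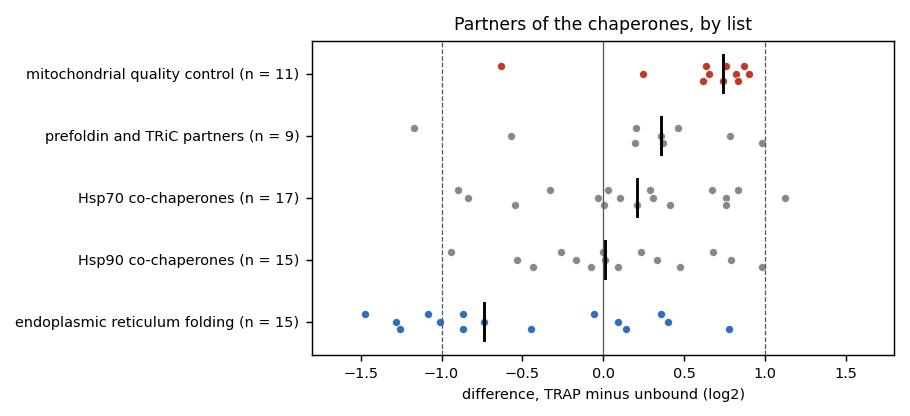
Difference between TRAP and unbound (x axis, log2) of the genes above the floor on 5 lists of chaperone partners, with black bars at the medians and dashed lines at 2-fold. The mitochondrial list has a median of 0.74 and the endoplasmic reticulum list one of -0.74, and the co-chaperones of Hsp90 and Hsp70 spread around medians of 0.01 and 0.21. On the endoplasmic reticulum list, 3 genes passed the floor through the unbound array alone and so had to be lower in TRAP. Among its 12 genes above the floor on both arrays, 7 were lower. Spg7, on the mitochondrial list, passed through the TRAP array alone.

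The 14 chaperone genes below the floor on both arrays were Cct6b, Cct8l1, Dnajb3, Dnajb6, Dnajb7, Dnajb8, Dnajb13, Dnajc1, Dnajc5b, Dnajc5g, Dnajc22, Dnajc25, Hspa12b and Hspa1l. Several of them, among them Dnajb3, Dnajb8, Dnajb13, Dnajc5g, Cct6b and Hspa1l, are known from testis. Their differences ran from -1.41 (Dnajc1) to 0.43 (Dnajb3), and without a detection call their signal cannot be told from background.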

How the data were processed

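The deposited table gives 1 expression value per probe set, taken as log2, for each of 2 Affymetrix whole-transcript arrays, 1 of TRAP RNA and 1 of unbound RNA. Per the submitters' processing notes, the authors used Affymetrix Power Tools to make these values. The version of the tool, the background correction, normalization and summary method are unstated. So is the log base: as a natural log, the highest value would mean a signal of 847885, above the 65535 of a 16-bit scanner, so log2 was taken. The array medians are 6.92 (TRAP) and 7.25 (unbound), and the number of arrays, not a read depth, limits the precision.

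Of 22097 probe sets, 20999 name 1 gene in the platform annotation, 91 name several, none of them a chaperone of the rule, and 1007 are unnamed here. All 72 chaperone genes matched RefSeq (GRCm38.p6) by Entrez identifier. Probe sets of a gene were averaged (65 of the 72 have 1), in Python 3.11.15 with pandas 2.3.3, and trends were fitted by local regression in statsmodels 0.14.6 (span 0.3). Functions were tested on simulated data. No p-value was computed. Every chaperone gene could be named, and up to 4 genes per partner list, 2 from each end; Trap1, Grpel2, Hyou1, Sil1 and Ahsa2 were added after their values were seen. The genes and lists were chosen with earlier results of these data known. Alternatives covered scaling, floor, probe set choice and threshold. Protein motifs were planned but not analysed here.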

Additional observations from a re-analysis of the deposited data

How the results depend on the processing

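No paired analysis was possible because each fraction has 1 array, and for the same reason no replicate could be left out. Chaperone genes at least 2-fold higher in TRAP (4) numbered 12 with array medians subtracted, beside 16.4% of all genes above the floor. After quantile normalization they numbered 7, beside 12.0%. At a threshold of 1.5-fold they numbered 14, and at 4-fold 0. Those at least 2-fold lower in TRAP (5) numbered 2 with array medians subtracted, beside 11.55% of all genes. They numbered 3 after quantile normalization, beside 13.68%, and 3 after trend removal, beside 16.52%. With the floor at the 75th percentile (9.01) there was 1 of 37, beside 17.2%. At 1.5-fold they numbered 9, and at 4-fold 1. For 1.5-fold and 4-fold the share over all genes was not computed, so these counts are not read as results about chaperones. With array medians subtracted the median differences were 1.05 for mitochondrial genes (0.72 as deposited), 0.059 for TRiC, 0.27 for cytosolic Hsp70 and 0.33 for Dnajc. The Dnajc median (-0.00) was also 0.13 after quantile normalization, 0.048 after trend removal, 0.097 without a floor and 0.55 with the higher floor, over different genes. Without a floor the cytosolic Hsp70 median (-0.061) was 0.041 and that of Hspa12a and Hspa12b 0.83. With the brightest probe set per gene the median of Hspe1 and Hspd1 was 0.98, against 1.11. No gene at least 2-fold apart changed sign, and 45 of 58 genes kept their sign under all 4 scalings. The cause of these shifts was not tested beyond the construction of each setting. The signal over background is unknown, which limits all genes near the floor.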
